A study of Mus musculus with 15 samples.

Results

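The 10 genes described here are the EGF receptor family (Egfr, Erbb2, Erbb3 and Erbb4) and the ligands Hbegf, Areg, Ereg, Tgfa, Btc and Egf. They were chosen by name and are 10 of the 34554 features in the summed count table of mouse pancreatic duct organoids. The gene Erbb4 was not tested, because it had 1 count in all libraries together, and the other 9 passed the filter on low counts.

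EGF family ligands are made as membrane-anchored precursors, and sheddase enzymes release the active part from the cell surface. A released ligand binds a receptor, receptors pair with each other, and their kinase domains then activate the RAS-ERK and PI3K-AKT pathways. In the pancreas this system is known for its part in the conversion of acinar cells to duct-like cells and in the growth of duct cells. Egfr encodes the receptor of EGF, TGF-alpha and amphiregulin, and also of HB-EGF, betacellulin and epiregulin. Erbb2 has no known ligand of its own and acts as a partner, Erbb3 has a weak kinase and binds neuregulins, and Erbb4 binds neuregulins and some of the EGF family ligands.

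The organoids came from normal pancreatic ducts and were grown in Matrigel with recombinant mouse EGF in the medium, so the Egf values below concern the cells' own gene only. Lines A217, A220 and A225, called inducible, carry all alleles that doxycycline needs to switch on the glycan CA19-9, and lines A218 and A223, called negative, lack a required allele, which the labels do not name. All 5 lines received doxycycline (1 µg/ml) for 0, 4 or 24 h, with 3 inducible and 2 negative libraries per time and 15 in all. The medium was renewed 24 h before a harvest common to all cultures, at every time including 0 h. Negative lines also received doxycycline, so a change with hours of doxycycline is not by itself tied to CA19-9. The comparison that sets inducible apart from negative lines is the difference of their responses.

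Library totals ran between 47915632 and 59411540 estimated counts. The reporter EGFP had 13347 to 18179 counts in inducible lines after 4 or 24 h, against 18 to 37 counts at 0 h, and it had 5 to 17 counts in negative lines at any time. The duct keratin genes Krt18, Krt8 and Krt19 averaged 4490, 3960 and 1980 TPM (a level per transcript length, scaled to the same total in every library), and Cftr, another duct marker, averaged 0.547 TPM. Summed over their lists, markers of acinar cells reached at most 3.31 TPM, of endocrine cells 0.274 TPM, of fibroblasts 2.51 TPM, of immune cells 3.00 TPM and of endothelial cells 5.39 TPM. Line A225 stood apart from the others for several of the 10 genes, and changes without it are given below. Cpa1, Ptf1a, Ins1, Ins2, Gcg, Ppy and Adgre1 were listed at 0 in every library. The labels do not say whether the lines came from separate animals, and p-values therefore cover the variation among these 5 lines only.

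The genes Ereg, Areg and Btc lie next to each other on chromosome 5 (GRCm38), at chr5:91074622-91093646, chr5:91139599-91148432 and chr5:91357261-91402994, with Btc on the minus strand and the others on the plus strand. Another ligand gene, Epgn, lies beside them at chr5:91027464-91035215 and averaged 0.0556 TPM. The promoters of Areg and Btc are shown because both genes belong to this cluster and each was called in some comparison over time (described below). Each line gives the 250 bases before the annotated start, 5′ to 3′ on the gene's own strand, from RefSeq (GRCm38.p6; Areg, plus strand, chr5:91139349-91139598; Btc, minus strand, chr5:91402995-91403244). Capitals mark the letters of a searched motif.
Areg: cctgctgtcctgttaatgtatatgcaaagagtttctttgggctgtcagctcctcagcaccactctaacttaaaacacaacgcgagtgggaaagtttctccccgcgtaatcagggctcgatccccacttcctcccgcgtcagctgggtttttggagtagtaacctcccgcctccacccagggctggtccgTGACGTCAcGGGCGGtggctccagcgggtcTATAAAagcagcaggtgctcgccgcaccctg
Btc: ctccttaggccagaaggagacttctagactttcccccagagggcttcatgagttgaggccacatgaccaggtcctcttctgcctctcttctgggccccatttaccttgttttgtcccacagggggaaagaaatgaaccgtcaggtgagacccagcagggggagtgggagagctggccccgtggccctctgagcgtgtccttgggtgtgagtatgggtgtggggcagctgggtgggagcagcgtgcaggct

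Both strands of these windows were searched for the letters of a TATA box as TATAAA, an AP-1 site as TGANTCA, a cyclic AMP response element as TGACGTCA, a GC box as GGGCGG and an E-box as CACGTG. The Areg window held TGACGTCA 61 to 54 bases, GGGCGG 52 to 47 bases and TATAAA 31 to 26 bases before the start, and these matches do not overlap. The Btc window held none of the 5 motifs, which says only that these letters are not in it. Among the same windows of 32851 promoters, 12.4% held TATAAA, 6.75% TGANTCA, 1.55% TGACGTCA, 32.7% GGGCGG and 6.02% CACGTG. The Areg window was 57.2% G or C and the Btc window 59.6%. Of the 10 genes, 7 were matched in this table.

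In levels summed over all transcripts of a gene, 3 ligands stood above the receptors and the other 3 below them. Areg (amphiregulin) led with a mean of 87.9 TPM over the 15 libraries and a range of 59.5 to 135 TPM, followed by Hbegf (HB-EGF) with 68.1 TPM (52.6 to 96.0) and Tgfa (TGF-alpha) with 52.4 TPM (47.2 to 63.1). Areg was above Hbegf in 12 of 15 libraries, and Hbegf was above Tgfa in 15 of 15 although their ranges overlapped. The 3 tested receptors came next, and their sums lay close together. Erbb3 averaged 36.6 TPM (32.3 to 40.9), Erbb2 33.5 TPM (28.8 to 38.5) and Egfr 31.2 TPM (25.8 to 40.0). The Erbb2 sum held 14.98 TPM of a transcript annotated as processed, without a coding frame, beside 18.05 TPM of its coding transcript. The long and the shorter coding transcript of Egfr averaged 12.15 and 10.65 TPM, and its processed transcripts 6.46 and 1.73 TPM. All of Erbb3 was a coding transcript, so the order of receptors given here is that of the sums. Tgfa was above Erbb3 in every library, with ranges that do not overlap. Erbb3 was above Erbb2 in 13 of 15 libraries and Erbb2 above Egfr in 10 of 15, with overlapping ranges in both cases.

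Lower ligands were Btc (betacellulin), at 18.2 TPM (14.3 to 21.3), and Ereg (epiregulin), at 15.1 TPM (9.15 to 23.8). Egfr was above Btc in every library with no overlap of ranges, and Btc was above Ereg in 12 of 15 libraries. Egf stood far below at 0.824 TPM (0.475 to 1.28), with Ereg a median of 17.9 times higher, and rested on 39 to 99 counts per library. Erbb4 had its only count in line A225 at 0 h. In the 14 other libraries a count of 0 allows up to 3 counts, which is 0.0517 to 0.0626 CPM (counts per 1000000) depending on the library. These limits cover counting error only. In a bulk sample, fewer cells of a type and less RNA per cell cannot be told apart.

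**Figure D1:**
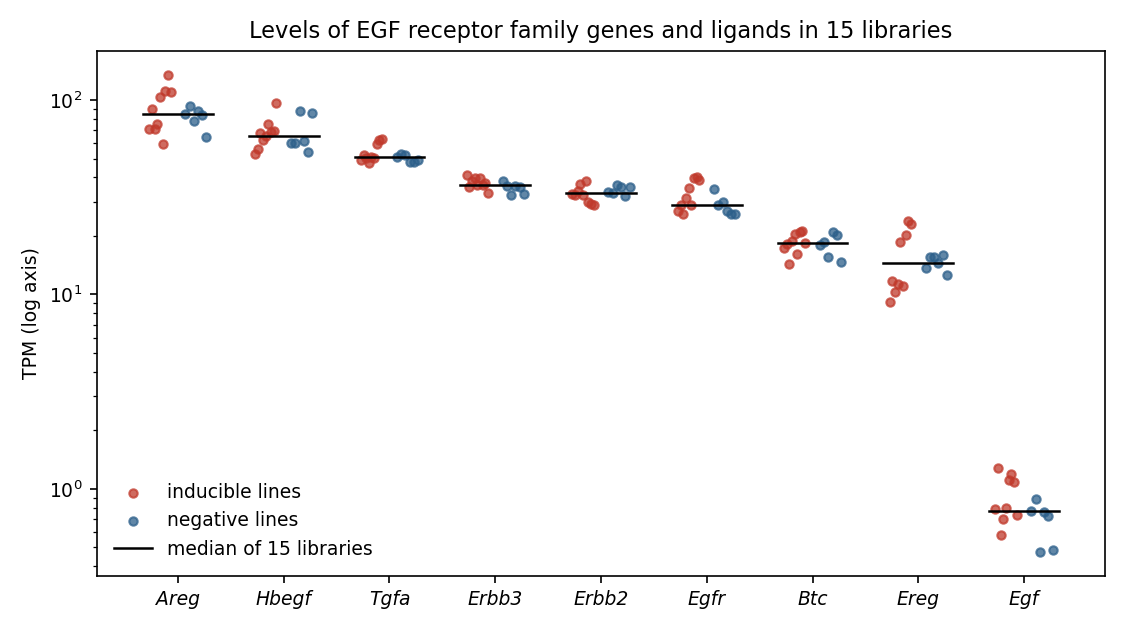
TPM (log axis) of 9 of the genes in each of 15 libraries, inducible lines left of negative lines, with a black bar at the median of all libraries; Erbb4 is left out because it had 1 count. Areg, Hbegf and Tgfa lie above the receptors, with ranges of 59.5 to 135, 52.6 to 96.0 and 47.2 to 63.1 TPM, and Egf lies between 0.475 and 1.28 TPM.

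The clearest change among the 10 genes was in Hbegf, which encodes a heparin-binding ligand known for binding both Egfr and Erbb4 and which lies on the minus strand at chr18:36504927-36515805. It was higher after 24 h of doxycycline in all 5 lines, and inducible and negative lines did not differ detectably in this. In inducible lines A217, A220 and A225, Hbegf stood at 82.1, 96.1 and 104 CPM (TMM-scaled) at 0 h, at 84.7, 99.1 and 102 CPM at 4 h, and at 108, 118 and 148 CPM at 24 h. In negative lines A218 and A223 it stood at 90.0 and 92.7 CPM at 0 h, at 89.9 and 81.3 CPM at 4 h, and at 137 and 133 CPM at 24 h. Every 24 h library was above every 0 h and 4 h library. Within lines, the 24 h value was 1.23 to 1.53 times the 0 h value.

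Averaged over both genotypes, Hbegf rose at 24 h by 0.49 ± 0.09 on the log2 scale (SE; edgeR quasi-likelihood adjusted p = 0.00354), and with the line as a block by 0.48 ± 0.04 (edgeR adjusted p = 1.51e-06). In negative lines it averaged 135 ± 2.95 CPM at 24 h and 91.3 ± 1.93 CPM at 0 h (SD, n = 2 lines each), a log2 change of 0.57 ± 0.14 (edgeR adjusted p = 0.0409). In inducible lines it averaged 125 ± 20.9 CPM at 24 h and 94.0 ± 11 CPM at 0 h (SD, n = 3 lines each), a log2 change of 0.41 ± 0.11 that missed the threshold (edgeR adjusted p = 0.0575). With the line as a block that change was called (0.40 ± 0.05, edgeR adjusted p = 0.000133). The difference of the 24 h responses, inducible minus negative, was -0.16 with a 95% interval of -0.55 to 0.23 (edgeR adjusted p = 1). With the block that difference was -0.16, with an interval of -0.34 to 0.01 and an unadjusted p of 0.0641 (edgeR adjusted p = 0.624). At 4 h no change of Hbegf was detectable in either genotype, with log2 changes of 0.02 in inducible and -0.09 in negative lines.

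The call over both genotypes held when any 1 library was left out. That in negative lines alone rests on every one of its libraries. Leaving out the 24 h library of A218 or A223 gave edgeR adjusted p = 0.202 and 0.174, and leaving out the 0 h library of A218 or A223 gave 0.223 and 0.213, with the block 0.00135, 0.00245, 0.00434 and 0.000783. Without the 24 h library of A217 the change in inducible lines was called (0.50, edgeR adjusted p = 0.0154), and without the 24 h library of A225 it was 0.26 (edgeR adjusted p = 0.218). The summed level of 12 duct markers moved with the 24 h libraries. It was 15000 to 17200 TPM at 24 h and 11500 to 14000 TPM at 0 h in inducible lines, and 17000 to 17900 TPM at 24 h and 12500 to 12600 TPM at 0 h in negative lines. Over both genotypes at 24 h, 3 of these 12 markers rose and none fell without the block (18.7% of all features called). They were Tspan8, Krt8 and Krt18 (log2 0.69, 0.55 and 0.52, edgeR adjusted p = 1.44e-05, 0.000323 and 0.00135). With the block 8 rose and 2 fell (36.1% of all features called). Of 8 fibroblast markers 4 were tested. In the same comparison none of them was called without the block (18.7% of all features), with 0 at an unadjusted p under 0.05. With the block 2 rose (36.1% of all features called). Their sum was 0.291 to 2.32 TPM at 24 h and 0.13 to 1.46 TPM at 0 h in inducible lines, and 0.317 to 1.38 TPM at 24 h and 0.138 to 0.237 TPM at 0 h in negative lines. The part of either marker list in the result was not tested.

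Btc, the gene of betacellulin, a ligand of Egfr and Erbb4, went the other way. It was lower after 24 h in all 5 lines, at 0.75 to 0.887 times the line's own 0 h value. Levels of Btc in A217, A220 and A225 (inducible) were 32.7, 36.1 and 38.5 CPM at 0 h, at 34.0, 36.6 and 38.2 CPM at 4 h, and at 28.1, 30.9 and 34.2 CPM at 24 h. In negative lines A218 and A223 it stood at 32.7 and 37.0 CPM at 0 h, at 32.3 and 37.1 CPM at 4 h, and at 28.9 and 27.8 CPM at 24 h. The 24 h and 0 h groups overlapped in inducible lines, where A225 at 24 h was above A217 at 0 h, and not in negative lines.

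Over both genotypes Btc fell at 24 h by 0.25 ± 0.07 on the log2 scale (edgeR adjusted p = 0.0307; with the block 0.000447). In inducible lines alone the log2 change was -0.20 ± 0.09 (edgeR adjusted p = 0.214; with the block 0.0136), and in negative lines -0.30 ± 0.11 (edgeR adjusted p = 0.152; with the block 0.00586). Without the block, the call over both genotypes was lost when the 24 h library of A218, A220 or A223 was left out (edgeR adjusted p = 0.0749, 0.0504 and 0.1), or the 0 h library of A223 or A225 (0.133 and 0.0536). With the block it held in every such fit. The block call in inducible lines was lost without the 24 h library of A220 (edgeR adjusted p = 0.0599) or the 0 h library of A220 or A225 (0.0545 and 0.054), and that in negative lines without the 24 h library of A223 (log2 -0.18, edgeR adjusted p = 0.165) or its 0 h library (0.101). The difference of the 24 h responses was 0.10, inducible minus negative (95% interval -0.22 to 0.41), and with the block 0.09 (-0.09 to 0.27). At 4 h the change over both genotypes was 0.01 ± 0.07.

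Without the block, 2 of the 9 tested genes were called at 24 h over both genotypes, where 18.7% of all 16462 tested features were. In inducible lines edgeR called none of the 9 (4.93% of all features), although Hbegf and Btc had an unadjusted p under 0.05, DESeq2 called Hbegf and limma-voom called both. In negative lines 1 was called, Hbegf (3.8%). With the line as a block the calls were Hbegf, Btc and Tgfa over both genotypes, 3 of 9 (36.1% of all features), and Hbegf and Btc in inducible lines (24.2%) as well as in negative lines (22.5%). Over both genotypes the share of called genes in this family was near that among all features, in both fits.

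**Figure D2:**
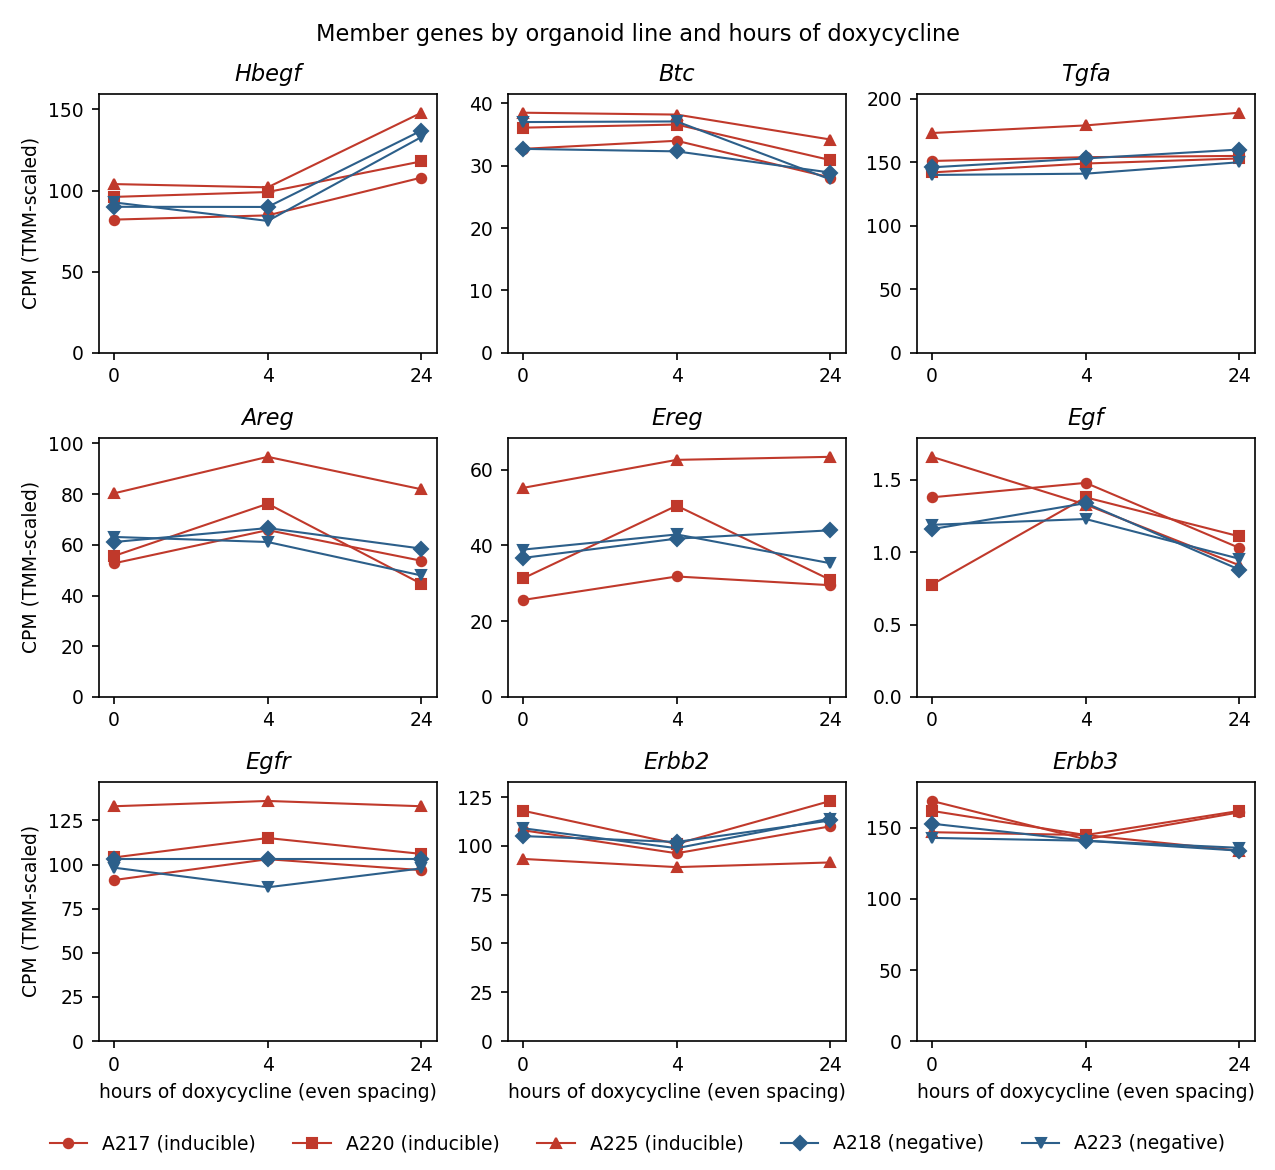
CPM (TMM-scaled, axes starting at 0) of 9 genes after 0, 4 and 24 h of doxycycline, with 1 line per organoid line, red for inducible and blue for negative lines. Hbegf is highest at 24 h in all 5 lines (108 to 148 CPM), Btc is lowest at 24 h in all 5 (27.8 to 34.2 CPM), and A225 stands apart for Egfr, Tgfa, Areg and Ereg.

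Tgfa (chr6:86195223-86275719, plus strand) encodes TGF-alpha, an Egfr ligand. It was a little higher at 24 h than at 0 h in all 5 lines, 1.03 to 1.10 times. Levels in A217, A220 and A225 (inducible) were 151, 142 and 173 CPM at 0 h, at 154, 149 and 179 CPM at 4 h, and at 155, 153 and 189 CPM at 24 h. A218 and A223 (negative) had 146 and 140 CPM at 0 h, 153 and 141 CPM at 4 h, and 160 and 150 CPM at 24 h. The spread between lines, with A225 on top at each time, was wider than the step within a line. The log2 change at 24 h over both genotypes was 0.11 ± 0.08 without the block (edgeR adjusted p = 0.359), and 0.11 ± 0.03 with it (edgeR adjusted p = 0.00699). Among single libraries, the block call was lost only without the 0 h library of A218 (edgeR adjusted p = 0.0839).

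The neighbours Areg and Ereg, whose proteins both bind Egfr, were higher at 4 h than at 0 h in 4 and 5 of the 5 lines. In inducible lines A217, A220 and A225, Areg stood at 52.7, 55.6 and 80.3 CPM at 0 h, at 65.8, 76.2 and 94.7 CPM at 4 h, and at 53.7, 44.6 and 81.9 CPM at 24 h. Negative lines A218 and A223 had 61.1 and 63.1 CPM at 0 h, 66.6 and 61.1 CPM at 4 h, and 58.5 and 47.9 CPM at 24 h. All 3 inducible lines were highest at 4 h, A218 was too, and A223 was not, and the 4 h and 0 h groups overlapped in both genotypes.

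The log2 change of Areg at 4 h in inducible lines was 0.33 ± 0.21 (edgeR adjusted p = 0.828). With the line as a block it was 0.34 ± 0.09 and just passed (edgeR adjusted p = 0.0495). Without the block the change was 0.18 when the 4 h library of A225 was left out, 0.55 without the 0 h library of A225 and 0.22 without the 0 h library of A217, none of them called. The block call was lost without the 4 h library of A217 or A220 (log2 0.38 and 0.22, edgeR adjusted p = 0.131 and 0.31) or the 0 h library of A217, A220 or A225 (log2 0.32, 0.37 and 0.34, edgeR adjusted p = 0.151, 0.148 and 0.194). It held without the 4 h library of A225 (log2 0.42, edgeR adjusted p = 0.034). In negative lines the change was 0.04 ± 0.26. The difference of the 4 h responses was 0.29, inducible minus negative, with a 95% interval of -0.44 to 1.01 (edgeR adjusted p = 1). With the block it was 0.30, with an interval of 0.01 to 0.59 and an unadjusted p of 0.0435 (edgeR adjusted p = 0.991), so it did not pass the correction over all features.

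Ereg encodes epiregulin, which also binds Erbb4. In inducible lines A217, A220 and A225 it stood at 25.6, 31.3 and 55.2 CPM at 0 h, at 31.8, 50.5 and 62.6 CPM at 4 h, and at 29.5, 30.9 and 63.4 CPM at 24 h. Negative lines A218 and A223 had 36.7 and 38.9 CPM at 0 h, 41.8 and 42.9 CPM at 4 h, and 44.0 and 35.3 CPM at 24 h. The 4 h value was above the 0 h value in all 5 lines, by 1.10 to 1.61 times, while the groups of inducible lines overlapped widely. Over both genotypes the log2 change at 4 h was 0.27 ± 0.26 (edgeR adjusted p = 0.802), and with the block 0.28 ± 0.09 (edgeR adjusted p = 0.0612). In the block fit without the 4 h library of A225 it was called (0.34, edgeR adjusted p = 0.0211). An antisense gene overlaps the start of Ereg, and the sources used here do not say if strand was used in counting, so reads of such overlapping genes cannot be told apart.

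Egf itself (chr3:129677565-129755316, minus strand) was not called at any time with all 15 libraries, with or without the block. The inducible lines A217, A220 and A225 had 1.38, 0.777 and 1.66 CPM at 0 h, 1.48, 1.38 and 1.33 CPM at 4 h, and 1.03, 1.11 and 0.91 CPM at 24 h. The negative lines A218 and A223 had 1.16 and 1.19 CPM at 0 h, 1.34 and 1.23 CPM at 4 h, and 0.88 and 0.955 CPM at 24 h. The value was lower at 24 h than at 0 h in 4 of 5 lines and higher in A220. The log2 change at 24 h over both genotypes was -0.34 ± 0.19, with a 95% interval of -0.76 to 0.08 (edgeR adjusted p = 0.247). Without the 0 h library of A220 it was -0.48 and called (edgeR adjusted p = 0.042; with the block -0.49 and 0.0459). Its largest share of counts, 42.92%, was assigned to a transcript of 4389 bases annotated as a target of nonsense-mediated decay, and antisense genes overlap the gene.

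**Figure D3:**
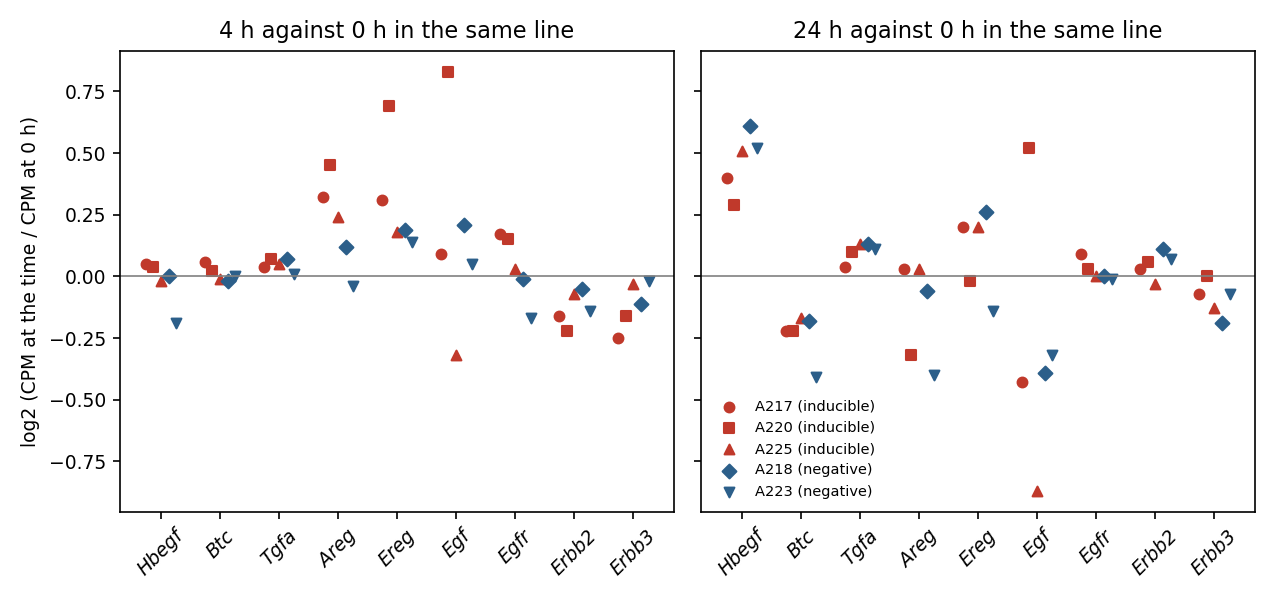
Log2 ratio of CPM at 4 h (left) or 24 h (right) to CPM at 0 h in the same organoid line, for 9 genes and 5 lines. At 24 h Hbegf lies above 0 and Btc below 0 in all 5 lines, while at 4 h Ereg lies above 0 and Erbb2 and Erbb3 lie below 0 in all 5.

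With all 15 libraries, the only receptor called was Erbb2, at 4 h over both genotypes and with the block. Erbb2, the preferred pairing partner, was lower at 4 h than at 0 h in all 5 lines, at 0.857 to 0.969 times, and was back near its 0 h level at 24 h. In inducible lines A217, A220 and A225 it stood at 108, 118 and 93.3 CPM at 0 h, at 96.2, 101 and 89.1 CPM at 4 h, and at 110, 123 and 91.5 CPM at 24 h. The negative lines had 105 and 109 CPM at 0 h, 102 and 98.8 CPM at 4 h, and 113 and 114 CPM at 24 h. Over both genotypes the log2 change at 4 h was -0.12 ± 0.08 (edgeR adjusted p = 0.621), and with the block -0.12 ± 0.03 (edgeR adjusted p = 0.0494).

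The block call for Erbb2 was lost when any 1 of 9 of the 10 libraries at 0 and 4 h was left out. Without the 4 h library of A217, A218, A220 or A223 the edgeR adjusted p was 0.105, 0.0564, 0.136 and 0.228. Without the 0 h library of A217, A218, A220, A223 or A225 it was 0.0895, 0.11, 0.1, 0.274 and 0.0839. Without the 4 h library of A225 the call held (0.0122). The 3′ end of Erbb2 (chr11:98412470-98437716, plus strand) meets that of Mien1 on the other strand.

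Erbb3 (chr10:128567523-128589652, minus strand) was likewise lower at 4 h in all 5 lines, at 0.844 to 0.989 times the 0 h value, and was not called with all libraries. Inducible lines A217, A220 and A225 had 169, 162 and 147 CPM at 0 h, 142, 145 and 145 CPM at 4 h, and 161, 162 and 134 CPM at 24 h. Negative lines A218 and A223 had 153 and 143 CPM at 0 h, 141 and 141 CPM at 4 h, and 134 and 136 CPM at 24 h. Its spread between lines was narrow, with a highest library 1.26 times the lowest. The log2 change over both genotypes was -0.11 ± 0.05 at 4 h (edgeR adjusted p = 0.499; with the block 0.139, or 0.0157 without the 4 h library of A225) and -0.10 ± 0.05 at 24 h (edgeR adjusted p = 0.248; with the block 0.0759).

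Egfr (chr11:16752203-16918158, plus strand) had no call in either fit. Inducible lines A217, A220 and A225 had 91.2, 104 and 133 CPM at 0 h, 103, 115 and 136 CPM at 4 h, and 96.8, 106 and 133 CPM at 24 h. Negative lines A218 and A223 had 103 and 98.2 CPM at 0 h, 103 and 87.1 CPM at 4 h, and 103 and 97.8 CPM at 24 h. Line A225 was above every other line at each time, and within lines the values changed by at most 1.13 times. Over both genotypes the log2 change was 0.01 ± 0.11 at 4 h and 0.01 ± 0.11 at 24 h, with 95% intervals of -0.24 to 0.26 and -0.23 to 0.26. The difference of the 4 h responses with the block was 0.21, inducible minus negative (unadjusted p = 0.00934, edgeR adjusted p = 0.991).

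At 4 h none of the 9 genes was called without the block, over both genotypes (0.911% of all features called), in inducible lines (0.298%) or in negative lines (0.121%). DESeq2 and limma-voom also called none of the 9 in these comparisons, and none of them had an unadjusted p under 0.05 with edgeR without the block. With the block the number at an unadjusted p under 0.05 was 4 over both genotypes (Areg, Erbb2, Erbb3 and Ereg), 5 in inducible lines (the same 4 and Egfr) and 0 in negative lines. With the block 1 of 9 was called over both genotypes, Erbb2 (8.67% of all features), 1 in inducible lines, Areg (3.05%), and none in negative lines (2.04%). In negative lines at 4 h the lowest unadjusted p of the 9 was 0.456 without the block and 0.116 with it, both by edgeR.

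Egfr and Erbb2 counts were each divided mainly between a pair of transcripts. The long coding transcript of Egfr, of 10208 bases, took 78.24% of its counts, and a shorter coding transcript of 2943 bases took 19.04%. Shares of counts grow with transcript length, and in TPM these transcripts averaged 12.15 and 10.65. In inducible lines the share of the shorter transcript averaged 19.39% ± 1.54 at 24 h and 19.48% ± 0.37 at 0 h (SD, n = 3 lines each), and in negative lines 20.34% ± 0.38 at 24 h and 19.06% ± 1.41 at 0 h (SD, n = 2 lines each). The ranges overlapped in inducible lines. In negative lines they nearly met, at 18.06 to 20.05% at 0 h and 20.08 to 20.61% at 24 h, and the 4 h range of 15.94 to 20.13% overlapped both. For Erbb2, the coding transcript of 5012 bases took 57.71% of counts, and a transcript of 4431 bases annotated as processed, without a coding frame, took 42.22%. In inducible lines its coding transcript averaged 58.7% ± 1.19 at 24 h and 57.18% ± 4.95 at 0 h (SD, n = 3 lines each), with overlapping ranges. In negative lines it averaged 54.99% ± 0.29 at 24 h and 57.97% ± 1.96 at 0 h (SD, n = 2 lines each). These ranges did not overlap, while the 4 h range of 52.95 to 58.19% overlapped both. Counts of overlapping transcripts are kallisto's estimates, and these shares were not tested.

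No member was called between genotypes. With edgeR without the block, none of the 9 was called for inducible against negative lines at 0 h (0% of all features; 589 features at an unadjusted p under 0.05), at 4 h (0.0121%) or at 24 h (0.0121%), nor for the difference of the 4 h or 24 h responses (0.0121% each). With the block none was called for the difference at 4 h (0.0182%) or 24 h (0.0243%), and DESeq2 and limma-voom also called none. At an unadjusted p under 0.05, without the block there were 0 of the 9 at 0 h, 0 at 4 h and 1 at 24 h between genotypes and 0 for either difference of responses. With the block there were 2 for the 4 h difference, Areg and Egfr, and 0 for the 24 h difference. Among the comparisons of genotypes at a single time, made without the block, the lowest unadjusted p was that of Erbb3 at 24 h, with 153 ± 15.9 CPM in inducible lines (SD, n = 3) and 135 ± 1.49 CPM in negative lines (SD, n = 2). Its log2 difference was 0.18, with a 95% interval of 0.01 to 0.35 (edgeR quasi-likelihood adjusted p = 0.856). Line A225 alone among the inducible lines was not above the negative lines.

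The intervals of the genotype differences were widest for Ereg. At 24 h its log2 difference was 0.06, with a 95% interval of -0.74 to 0.86, and inducible lines ranged between 29.5 and 63.4 CPM. For Hbegf at 24 h, inducible lines averaged 125 ± 20.9 CPM (SD, n = 3) and negative lines 135 ± 2.95 CPM (SD, n = 2), a log2 difference of -0.12 (95% interval -0.39 to 0.15). For Tgfa at 24 h it was 0.09 (-0.14 to 0.33) and for Btc 0.13 (-0.09 to 0.36). These intervals leave room for moderate differences in either direction.

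For 6 of the 9 genes the organoid line took more of the variance than hours of doxycycline did. The line took 91.1% of the variance of Egfr over the 15 libraries, 86% of that of Tgfa and 79% of that of Ereg, where the median over all tested features was 34.8%. For Erbb2, Areg and Erbb3 the line took 61.3%, 59.8% and 49.8%, and hours of doxycycline 30.7%, 26.3% and 22.2%. Only for Hbegf, Btc and Egf did hours of doxycycline take more than the line, with 73.5%, 58.1% and 43.1% (median over all features 27.9%). For Hbegf and Btc the line took 18.8% and 33.5%.

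Line A225 stood apart from the other 4. It had the highest line mean of Ereg, Areg, Egfr, Tgfa, Hbegf and Btc, at 0.60, 0.44, 0.33, 0.22, 0.18 and 0.14 above the mean of the 5 lines on the log2 scale, and the lowest of Erbb2, at -0.19. Averaged over times as a geometric mean, Ereg stood at 60.3 CPM in A225 and at 28.8 CPM in A217, both inducible, with the negative lines A218 and A223 between them at 40.7 and 38.9 CPM. Egfr stood at 134 CPM in A225 and between 94.2 and 108 CPM in the other lines. These are descriptions of single lines, with no test. In the block fit without A225, the log2 changes at 24 h over both genotypes were 0.44 for Hbegf (edgeR adjusted p = 2e-05), -0.27 for Btc (0.00187) and 0.08 for Tgfa (0.0578). At 4 h that of Erbb2 over both genotypes was -0.15 (0.0258), and that of Areg in inducible lines was 0.39 (0.0942). Without A225 the block fit called 3 genes at 4 h over both genotypes, Erbb2, Erbb3 and Ereg, where it called 1157 of all features. At 24 h in inducible lines it called 1, Hbegf, where it called 1767 of all features.

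**Figure D4:**
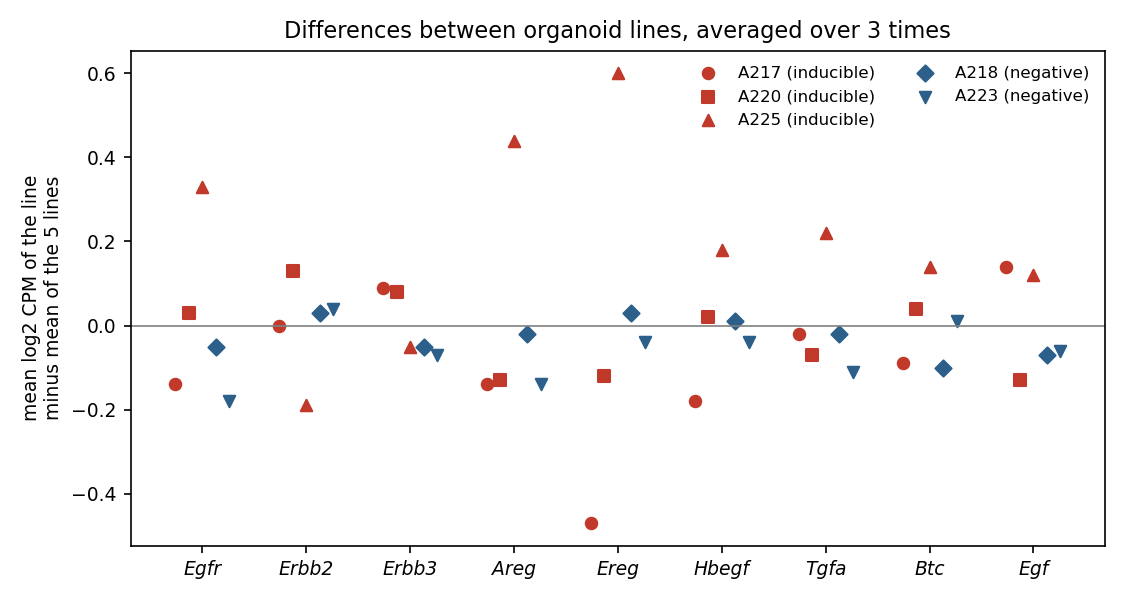
Mean log2 CPM of each organoid line over its 3 times, minus the mean of the 5 lines, for 9 genes, red for inducible and blue for negative lines. A225 lies at 0.60 for Ereg, 0.44 for Areg and 0.33 for Egfr, and at -0.19 for Erbb2.

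As a description over the 15 libraries, which share 5 lines and 3 times, some members went together. Areg and Ereg had a Pearson r of 0.85, and 0.80 once each line's own mean was taken away. Areg and Btc had 0.68, and 0.72 within lines. Hbegf and Btc had -0.47, and -0.90 within lines. Areg and Erbb2 had -0.90, and -0.89 within lines, so that libraries high in Areg were low in Erbb2. Egfr and Tgfa had 0.83 over all libraries and 0.25 within lines.

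Among 11832 protein-coding genes, those most like Hbegf by Pearson r of log2 CPM over the 15 libraries were Spns2 (0.978) and Wdr1 (0.974). For Btc they were Vstm5 (0.89) and Prrg4 (0.888), for Tgfa Tinag (0.96) and Ift81 (0.957), for Areg Gatad1 (0.926) and Inhba (0.919), and for Ereg Pcgf3 (0.954) and Tmem171 (0.918). For Erbb2 they were Lrig1 (0.948), whose protein is known to restrain EGF receptors, and Arhgef19 (0.932). Egfr was closest to Rab7b (0.951) and Snn (0.939), Erbb3 to Ipmk (0.849) and Golm1 (0.845), and Egf to Adgrv1 (0.84) and Prpf39 (0.836).

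The neuregulins and epigen make up the rest of the ligands. Of these 5 genes 3 were tested. At 24 h over both genotypes 1 was called without the block (18.7% of all features) and 1 with it (36.1%). Nrg1, which binds Erbb3 and Erbb4, was the only one called at 24 h over both genotypes, with a log2 change of -0.42 ± 0.14 (edgeR adjusted p = 0.0494; with the block 0.00071). It averaged 8.95 ± 1.79 CPM at 24 h and 11.5 ± 1.93 CPM at 0 h in inducible lines (SD, n = 3 lines each), and 8.32 ± 1.13 CPM at 24 h and 11.6 ± 0.514 CPM at 0 h in negative lines (SD, n = 2 lines each). Nrg4, another Erbb4 ligand, did not pass (log2 -0.20 ± 0.11, edgeR adjusted p = 0.244). The median of the 3 tested genes is the value of Nrg1 itself, and the median over all features was 0.

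Of 9 genes of ligand shedding, 1 rose at 24 h over both genotypes and none fell (18.7% of all features called). It was Adam9, which encodes a membrane metalloprotease, with 0.74 ± 0.08 (edgeR adjusted p = 0.000179). Adam9 averaged 366 ± 55.0 CPM at 24 h and 230 ± 13.0 CPM at 0 h in inducible lines (SD, n = 3 lines each), and 406 ± 42.5 CPM at 24 h and 232 ± 18.0 CPM at 0 h in negative lines (SD, n = 2 lines each). At 4 h the 1 call was Timp3, an inhibitor of such proteases, with -0.33 ± 0.05 (edgeR adjusted p = 0.00971). Of all features, 0.911% were called there. With the block, 3 of the 9 rose at 24 h (36.1% of all features called), and at 4 h 1 rose and 1 fell (8.67%). The list's median was 0.02 at 24 h and -0.05 at 4 h, beside 0 and 0.004 over all features.

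Among 22 genes that restrain the receptors or handle their uptake and turnover, 8 rose at 24 h over both genotypes and none fell, with a list median of 0.14 (18.7% of all features called in either direction, median 0). With the block 13 rose and none fell (36.1% of all features). The largest changes were those of Rab5a, a GTPase of early endosomes (0.27 ± 0.07, edgeR adjusted p = 0.0167), and Sh3kbp1, an adaptor in receptor uptake (0.27 ± 0.07, edgeR adjusted p = 0.0225). The receptor-type phosphatases Ptprk and Ptprj followed with 0.25 ± 0.04 and 0.24 ± 0.04 (edgeR adjusted p = 0.00161 and 0.00276). Ptprk averaged 278 ± 8.33 CPM at 24 h and 229 ± 16.3 CPM at 0 h in inducible lines (SD, n = 3 lines each). At 4 h edgeR called none of the 22 without the block (0.911% of all features), with 1 at an unadjusted p under 0.05. With the block 3 fell at 4 h (8.67% of all features called).

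Of 16 genes of the PI3K, AKT, PLC and STAT branches, 4 rose and 1 fell at 24 h over both genotypes (18.7% of all features called). Src, a kinase that relays and amplifies receptor signals, rose by 0.94 ± 0.09 (edgeR adjusted p = 5.54e-05). It averaged 210 ± 26.7 CPM at 24 h and 120 ± 10.7 CPM at 0 h in inducible lines (SD, n = 3 lines each), and 242 ± 6.57 CPM at 24 h and 114 ± 0.941 CPM at 0 h in negative lines (SD, n = 2 lines each). Pik3r3, a regulatory subunit of PI3K, and the transcription factor Stat3 rose by 0.43 ± 0.10 and 0.22 ± 0.05 (edgeR adjusted p = 0.0112 and 0.0129), while Stat5b fell by 0.23 ± 0.05 (edgeR adjusted p = 0.0064). Src was also the 1 call at 4 h (0.56 ± 0.09, edgeR adjusted p = 0.0102), where 0.911% of all features were called. With the block 7 rose and 1 fell at 24 h (36.1% of all features called), and 2 rose and 1 fell at 4 h (8.67%). The list's median was 0.09 at 24 h and 0.03 at 4 h.

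Of 20 adaptors and RAS-ERK genes, 2 rose at 24 h over both genotypes and none fell (18.7% of all features called). They were Shc1, an adaptor that docks on the activated receptors (0.24 ± 0.06, edgeR adjusted p = 0.0143), and Rasa1, which switches RAS off (0.22 ± 0.06, edgeR adjusted p = 0.0288). With the block 7 rose at 24 h (36.1%). At 4 h edgeR called none of the 20 without the block (0.911% of all features), with 1 at an unadjusted p under 0.05. With the block Gab1 fell by 0.19 at 4 h (8.67% of all features called). The median of this list was 0.07 at 24 h and -0.03 at 4 h.

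Of 20 ERK feedback and target genes, 1 fell and none rose at either time over both genotypes, Myc in both cases. Of all features, 0.911% were called at 4 h and 18.7% at 24 h. Myc changed by -0.51 ± 0.06 at 4 h (edgeR adjusted p = 0.000649) and by -0.18 ± 0.06 at 24 h (edgeR adjusted p = 0.0452). It averaged 53.5 ± 3.29 CPM at 4 h and 72.4 ± 5.43 CPM at 0 h in inducible lines (SD, n = 3 lines each), and 51.1 ± 0.148 CPM at 4 h and 76.1 ± 6.49 CPM at 0 h in negative lines (SD, n = 2 lines each). With the line as a block, 7 of these 20 genes fell at 4 h and 1 rose, where 8.67% of all features were called in either direction. Those that fell were Myc, Dusp7, Ccnd1, Dusp4, Spry1, Spry2 and Dusp6, named here after their values were seen, with log2 changes of -0.50, -0.24, -0.22, -0.21, -0.19, -0.19 and -0.15, and Spred1 rose by 0.17. At 24 h with the block 4 rose and 3 fell (36.1% of all features called). In all of these lists, no gene was called for the difference of responses or between genotypes.

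**Figure D5:**
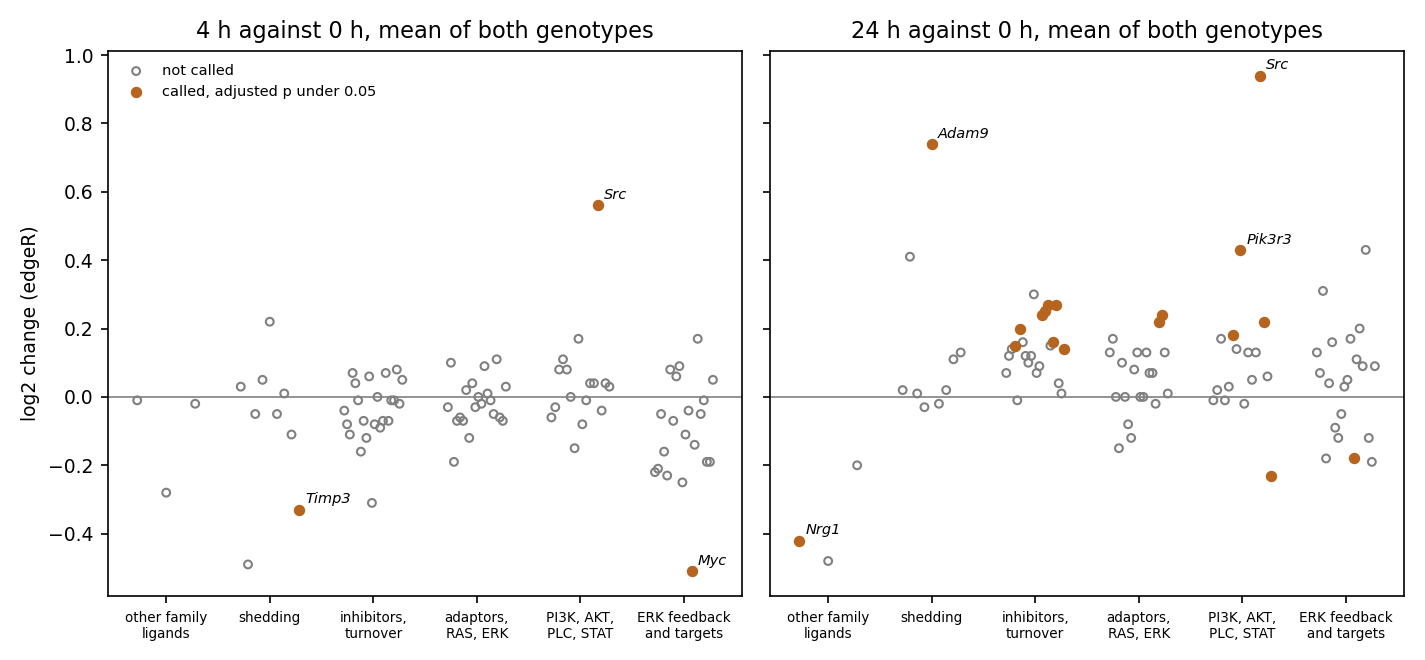
Log2 change (edgeR, without the block) over both genotypes at 4 h (left) and 24 h (right) against 0 h for the tested genes of 6 pathway lists, 1 circle per gene, filled where the adjusted p is under 0.05. Src lies at 0.56 at 4 h and 0.94 at 24 h, Adam9 at 0.74 at 24 h and Myc at -0.51 at 4 h; called genes of at least 0.3 in size are named.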

How the data were processed

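RNA was measured in 15 organoid libraries after depletion of ribosomal RNA. Transcripts were quantified by the authors with kallisto 0.43.1 on GRCm38, per the submitters' processing notes. Each deposited file gives raw estimated counts per transcript, with effective lengths and TPM values, per the file headers. Deposited TPM values were summed per gene for levels, and effective lengths served only as an offset in an alternative. Estimated counts were summed per gene with GENCODE M21, which may not be the authors' release (1295 transcripts of 109304 had no match), and rounded. Coordinates are from GENCODE M21 on GRCm38.

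Tests used edgeR's quasi-likelihood method (version 4.0.16, under R 4.3.3) with TMM scaling and edgeR's own filter on low counts. The model had a mean per group for 6 groups and was fitted to all 15 libraries (16462 features, 99.98% of counts). Adjustment was by Benjamini and Hochberg over all features, and a feature was called below 0.05. The biological coefficient of variation was 0.157 (9 residual degrees of freedom). Libraries of different times are paired by line, since each line was sampled at every time, per the labels' titles. Deviations from group means correlated at 0.636 to 0.734 in 9 pairs of inducible libraries and at 0.476 to 0.573 for negative libraries, where 2 lines mirror each other and leave 3 distinct values. The alternative with the line as replicate block had a coefficient of 0.058 and 6 degrees of freedom. No library was a copy of another: the 12 pairs within groups had a chi-square per degree of freedom of 16.02 to 47.45. Variance shares and correlations within lines used log2 CPM with a constant added before the log, which narrows differences of low genes such as Egf. The search for the most alike genes added a smaller constant, and correlations between members over all 15 libraries added none.

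The members, the gene lists and the tests were chosen with earlier results of these data known. All 10 members were named. In each list, up to 4 called genes of at least 1 CPM with the largest change were named per comparison, and the 2 genes most like each member. Alternatives were DESeq2 1.42.0, limma-voom (limma 3.58.1) with the line as a random block, median-of-ratios scaling, other filters, only the compared groups, an effective length offset, and leaving out libraries. The test without the block was checked on simulated counts, for inducible lines at 24 h against 0 h. These counts were drawn with no effect of the line, so the check covers neither the pairing by line nor the block fit.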

Additional observations from a re-analysis of the deposited data

How the results depend on the processing

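Of the members' log2 changes, the 9 called without or with the block were followed through the alternatives, and none of these 9 changed sign; the others were not followed in this way. When organoid line was added as a replicate block, the number of members called changed to 1 in inducible lines at 4 h (0 without it), 2 in inducible lines at 24 h (0), 2 in negative lines at 24 h (1) and 1 over both genotypes at 4 h (0). In inducible lines at 24 h it was also 1 with no expression filter, 1 with DESeq2 and 2 with limma-voom. In negative lines at 24 h it was 0 with the offset for effective length (Hbegf, 0.56, edgeR adjusted p = 0.0549) and 2 with limma-voom. Leaving out 1 library gave 0 to 1 in inducible lines at 24 h, 0 in negative lines at 24 h and 1 to 3 over both genotypes at 24 h. With the block, leaving out a library or a line (chosen after seeing the data) gave 0 to 4 in inducible lines at 4 h, 1 to 3 in inducible and in negative lines at 24 h, 0 to 3 over both genotypes at 4 h and 2 to 4 over both genotypes at 24 h. The 4 in inducible lines at 4 h came without the 4 h library of A225 (Areg, Ereg, Erbb2 and Erbb3), where 490 of all features were called. In these block fits, 103 to 490 of all features were called in inducible lines at 4 h, and 389 to 1501 over both genotypes at 4 h. At 24 h the number was 1767 to 4254 in inducible and 1268 to 3529 in negative lines. Genotype comparisons and differences of responses stayed at 0 members under every alternative. The block changed no other count of members by over 1.5 times, and the cause of these changes was not tested. Over both genotypes at 24 h, Hbegf ranged between 0.41 and 0.53 over 33 alternatives and was called in all, and Btc between -0.32 and -0.19 and was called in 28. Counts over all features called also rose with the block, to 5936 over both genotypes at 24 h (3081 without it). With 2 or 3 lines a group and without the block, moderate differences between genotypes or between their responses were not detectable. With the block, the difference of the 24 h responses had narrow intervals for Tgfa (-0.14 to 0.09) and Egfr (-0.1 to 0.19). The intervals were wider for Hbegf (-0.34 to 0.01), Ereg (-0.3 to 0.44) and Egf (-0.81 to 0.91). Egf is limited by counts of 39 to 99.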
